A study of Ciona robusta with 7 samples.

Results

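Conventional myosin (myosin II) is the motor of muscle contraction and of the contractile actin networks of other cells. Each molecule holds a pair of heavy chains, which carry the motor and the tail that packs into thick filaments, and on each heavy chain neck an essential and a regulatory light chain. In vertebrates, the heart and the skeletal muscles use partly different heavy chain genes, and a further set of heavy and light chains serves smooth muscle and non-muscle cells. The tunicate Ciona, a chordate without vertebrae, forms its heart and its pharyngeal (atrial siphon) muscle from 1 shared cardiopharyngeal lineage, so that both muscles can be compared within a lineage.

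The 7 myosin rows described here are those with the deposited names MYH1/2, MYH10/14, MYH10/11/14/9, MYL1/3/4/6, MYL10/2/5/7 and MYL12.1/2, and the row KH.C11.4, whose deposited name is MYH1/13/2/3/4/6/7/8. They are 4 heavy chain and 3 light chain rows among 15231 genes, and all 7 had reads in the table. The names list the vertebrate genes that a Ciona gene model resembles, so MYH1/2 is 1 gene model and not 2 genes. Its model is KH.L106.5, and those of the others are KH.L163.3 (MYH10/14), KH.C11.456 (MYH10/11/14/9), KH.C1.216 (MYL1/3/4/6), KH.C8.239 (MYL10/2/5/7) and KH.C11.143 (MYL12.1/2). By these names MYL1/3/4/6 resembles the essential light chains, MYL10/2/5/7 the regulatory light chains of striated muscle, MYL12.1/2 the regulatory light chains of non-muscle cells, and MYH10/11/14/9 the smooth muscle and non-muscle heavy chains. The name MYH10/14 lists genes that MYH10/11/14/9 also lists.

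The samples were 7 plates of single Mesp+ cells, sorted by fluorescence from Ciona robusta juveniles at stage 38 and prepared with SMART-seq2, a full-length cDNA method. All plates carried the same labels, with no treatment, genotype or time to compare, and the labels do not say whether plates came from separate animals, so that the spread between plates may be technical. Of 672 barcodes, 315 had reads in at least 1000 genes and are the cells used below. They held 98.2% of the 84728369 reads, with a median of 148206 reads and 2267 genes per cell, and numbered 13 to 85 per plate.

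Cells were grouped without the 7 myosin rows, on a random part of the genes, and classes were named from markers. That part held other myosin rows, since only 2 of 4 other myosin II rows and 8 of 16 unconventional myosins were kept out of it. The heart muscle-like class (32 cells) had 562 counts per 1000000 reads (CPM) of the heart regulator NKX2-3 and 48833 CPM in the muscle markers, which hold no myosin. These markers include troponin, tropomyosin and actin rows, so later differences of those rows between classes in part restate the naming. The mature pharyngeal muscle-like class (24 cells) and pharyngeal muscle-like cluster 3 (53 cells) had 516 and 533 CPM of EBF1/2/3/4, a regulator of the pharyngeal muscle fate, with 115530 and 26292 CPM of muscle markers. MYF5, from the same list of pharyngeal regulators, was also higher in them (216 and 139 CPM) than in heart muscle-like cells. ISL1/2, from that list too, went the other way, with 103 and 156 CPM in them against 172 CPM in heart muscle-like cells. The pharyngeal precursor-like class (67 cells) had 484 CPM of EBF1/2/3/4 and 1181 CPM of muscle markers. The non-muscle heart mesoderm-like class (80 cells) had 195 CPM of NKX2-3 and 6667 CPM of muscle markers. It was named from FOXF1/2 and MSX1/2/3, at 130 and 228 CPM against at most 7.47 and 2.29 CPM in other classes. Its muscle markers exceeded those of the precursor-like class, so the name does not mean that muscle transcripts were absent. Cluster 1 (59 cells) was left unnamed, and its ciliated-cell markers summed to 1578 CPM, against 115 to 359 CPM in the other classes. It also had 367 CPM of EBF1/2/3/4 and 1750 CPM of muscle markers, so EBF1/2/3/4 does not mark the pharyngeal classes alone. A plate entered a class mean where it held at least 5 of its cells, and these were plates 4, 5 and 7 for the heart muscle-like class and plates 4 and 5 for the mature pharyngeal class. The classes were formed from other genes of the same cells, so a difference between them is a description of how myosin genes sort with those genes. Gene lengths were not given, so the level of a row is compared between classes and not with the level of another row. Ratios and shares over several rows, also within single cells, depend on these unknown lengths.

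MYH1/2 was high in heart muscle-like cells and close to absent from pharyngeal muscle. Its level was 2818 CPM on plate 4, 5490 CPM on plate 5 and 5226 CPM on plate 7 in heart muscle-like cells. In the mature pharyngeal class it was 0 CPM on plate 4, where a count of 0 allows up to 3.13 CPM (3 reads), and 3.84 CPM on plate 5. In pharyngeal cluster 3 it was 0, 3.79, 3.51 and 9.0 CPM on plates 2, 4, 5 and 7. The heart plates lay far above every pharyngeal plate, with no overlap. Pharyngeal precursor-like cells had between 1.5 and 11 CPM over 5 plates, and cluster 1 between 0.819 and 26.1 CPM over 4 plates. Non-muscle heart mesoderm-like cells came next after the heart muscle-like class, with 206, 24.1, 168 and 192 CPM on plates 3, 4, 5 and 7. Their plate 4 value fell within the range of cluster 1, so below the heart muscle-like class each neighbour in the order overlapped the next. The top of the cluster 1 range, 26.1 CPM on plate 5, included a cell at 1027 CPM, while the median over cluster 1 cells was 2.27 CPM. Over all kept cells, MYH1/2 was read in 173 of 315.

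MYH10/14 also had its highest level in heart muscle-like cells. It had 131, 210 and 241 CPM on plates 4, 5 and 7 in heart muscle-like cells. In the non-muscle heart mesoderm-like class its plates ranged from 9.07 to 60.3 CPM, in cluster 1 from 5.21 to 29.3 CPM, and in pharyngeal cluster 3 from 0.441 to 8.33 CPM. The mature pharyngeal class had 28.2 CPM on plate 4 and 0 CPM on plate 5, and the precursor-like class had 0 to 3.65 CPM. Heart muscle-like plates again stood apart from all others, while the remaining classes overlapped their neighbours. Reads of MYH10/14 came from 14 of the 32 heart muscle-like cells, so that its class level rested on fewer than the 31 of 32 cells that had MYH1/2.

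MYH10/11/14/9 and MYL12.1/2 were read in all classes, with the highest means in heart muscle-like cells. MYH10/11/14/9 averaged 519 ± 346 CPM in heart muscle-like cells (SD, n = 3 plates), 194 ± 65.4 CPM in non-muscle heart mesoderm-like cells (n = 4), 178 ± 71.0 CPM in cluster 1 (n = 4), 110 ± 67.3 CPM in pharyngeal cluster 3 (n = 4), 71.5 ± 34.4 CPM in precursor-like cells (n = 5) and 47.7 ± 6.98 CPM in mature pharyngeal cells (n = 2). Each class overlapped the next in this order, and the heart values ran over 189, 489 and 879 CPM on plates 7, 5 and 4. MYL12.1/2, the regulatory light chain row of non-muscle type, averaged 1045 ± 377 CPM in heart muscle-like cells (n = 3). Its heart plates (663 to 1418 CPM) lay above those of every other class. The other 5 classes overlapped, from 378 ± 115 CPM in cluster 1 to 166 ± 44.9 CPM in precursor-like cells.

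KH.C11.4, the row named after the whole vertebrate sarcomeric MYH group, was hardly read. It had 92 reads in 18 of 315 cells, and no class mean exceeded 1.42 CPM. Its plates overlapped between all classes, so no class stood out for it at this depth.

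**Figure D1:**
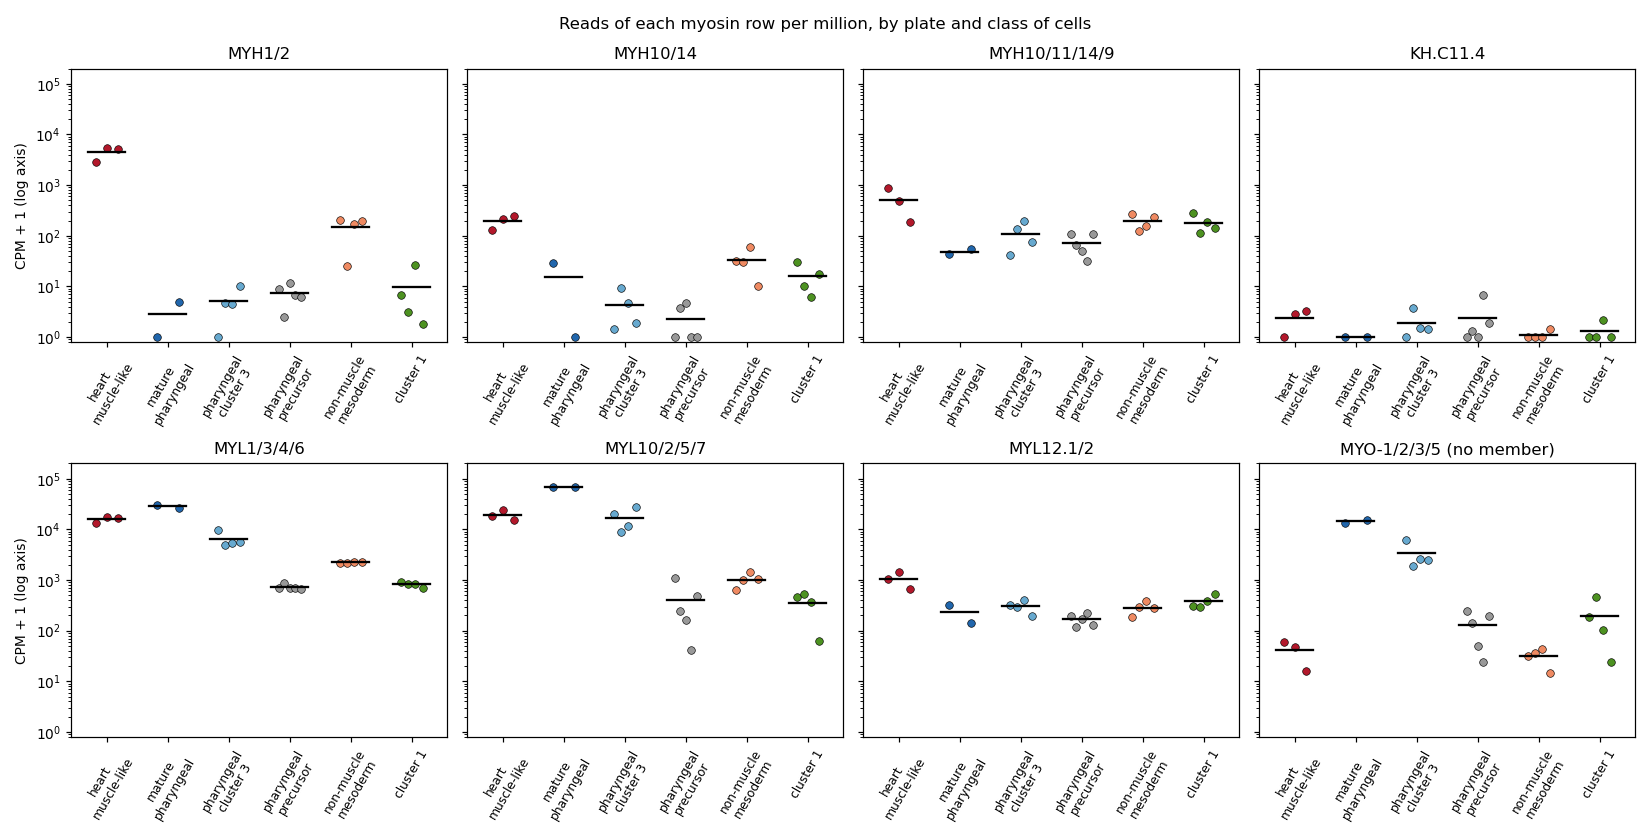
CPM plus 1 (log axis) of the 7 myosin rows and of MYO-1/2/3/5 in 6 classes of cells, 1 point per plate with at least 5 cells of the class and a bar at the mean over plates. MYH1/2 lies at 2818 to 5490 CPM in heart muscle-like cells and at most 9.0 CPM on the plates of the pharyngeal muscle-like classes, while both main light chains are high in heart and pharyngeal muscle.

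Both main light chain rows, MYL1/3/4/6 and MYL10/2/5/7, were shared by heart and pharyngeal muscle. MYL1/3/4/6 was 13503, 17635 and 16791 CPM on plates 4, 5 and 7 in heart muscle-like cells. It was 29943 and 26794 CPM on plates 4 and 5 in the mature pharyngeal class, and 9672, 5018, 5496 and 5708 CPM on plates 2, 4, 5 and 7 in cluster 3. The classes ran in the order mature pharyngeal, heart, cluster 3 and non-muscle heart mesoderm (2162 to 2310 CPM), each without overlap to the next. Cluster 1 and the precursor-like class followed with 819 ± 92.7 and 724 ± 93.2 CPM and overlapped. This essential light chain was read in all 315 cells.

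MYL10/2/5/7, the regulatory light chain row, was 67933 and 67394 CPM on plates 4 and 5 in the mature pharyngeal class, above every plate of the other classes. Heart muscle-like cells had 18657, 23830 and 15445 CPM on plates 4, 5 and 7, and cluster 3 had 20098, 8772, 11865 and 27841 CPM on plates 2, 4, 5 and 7, so these classes overlapped. The other 3 classes lay between 40.8 and 1426 CPM. The row had 1.22 ± 0.258 reads per MYL1/3/4/6 read in heart muscle-like cells (n = 3), 2.39 ± 0.174 in mature pharyngeal cells (n = 2), 2.72 ± 1.45 in cluster 3 (n = 4), 0.589 ± 0.643 in precursor-like cells (n = 5) and 0.456 ± 0.141 in non-muscle heart mesoderm-like cells (n = 4). Heart plates (0.920 to 1.38) thus lay below both pharyngeal muscle-like classes (from 1.75) and above all plates of the non-muscle heart mesoderm-like class (up to 0.630). MYL12.1/2 made up 2.83 ± 0.709% of light chain reads in heart muscle-like cells and 0.236 ± 0.119% in mature pharyngeal cells, against 25.2 ± 11.3% in cluster 1.

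In pharyngeal muscle-like cells both main light chain rows were thus above their levels in precursor-like cells, while MYH1/2 was not. A further row, MYO-1/2/3/5 (KH.C3.774), which the naming rule of the set does not include, was also high in pharyngeal muscle-like cells and was singled out after its values had been seen. Its deposited name is that of muscle myosin heavy chain genes of the nematode Caenorhabditis elegans. It was 13650 and 15318 CPM on plates 4 and 5 in mature pharyngeal cells, and 6303, 1932, 2658 and 2533 CPM on plates 2, 4, 5 and 7 in cluster 3. In heart muscle-like cells it was 58.0, 46.5 and 15.1 CPM on plates 4, 5 and 7. Non-muscle heart mesoderm-like cells had 13.4 to 41.7 CPM, a range that held the plate 7 value of the heart muscle-like class and lay below its plates 4 and 5.

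Among the 4 heavy chain rows of the set, MYH1/2 took 84.9 ± 9.93% of reads in heart muscle-like cells (n = 3 plates), 35.7 ± 14.7% in non-muscle heart mesoderm-like cells (n = 4) and a mean of at most 9.0% in the other classes. MYH10/11/14/9 took 54.3 ± 11.8% in non-muscle heart mesoderm-like cells, and 3.35 to 23.0% over the heart muscle-like plates. In the mature pharyngeal class the 4 rows held only 246 reads in all, of which MYH10/11/14/9 took 76.8% (exact Clopper-Pearson 95% interval 71.0 to 82.0%). The plates of this class lay at 60.3 and 93.2%, both outside the interval. With MYO-1/2/3/5 added to these rows, it took 99.6 ± 0.106% of heavy chain reads in mature pharyngeal cells (n = 2) and 95.5 ± 3.15% in cluster 3 (n = 4), against 0.834 ± 0.619% in heart muscle-like cells (n = 3). Precursor-like cells, with few muscle transcripts, had 55.5 ± 15.2% MYO-1/2/3/5 and 4.68 ± 4.31% MYH1/2 (n = 5). Few cells weighed heavily on this MYO-1/2/3/5 share. The class mean of 130 CPM lay above the upper quartile of its cells (78.2 CPM), with a median of 34.9 CPM and a maximum of 1757 CPM. Non-muscle heart mesoderm-like cells had 8.72 ± 5.85% MYO-1/2/3/5 and 33.1 ± 14.6% MYH1/2 (n = 4). Shares depend on transcript length, so they can be compared between classes for 1 row and not between rows. The interval treats reads as independent, although reads without molecular identifiers can be copies of 1 molecule. It does not cover the spread between plates.

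**Figure D2:**
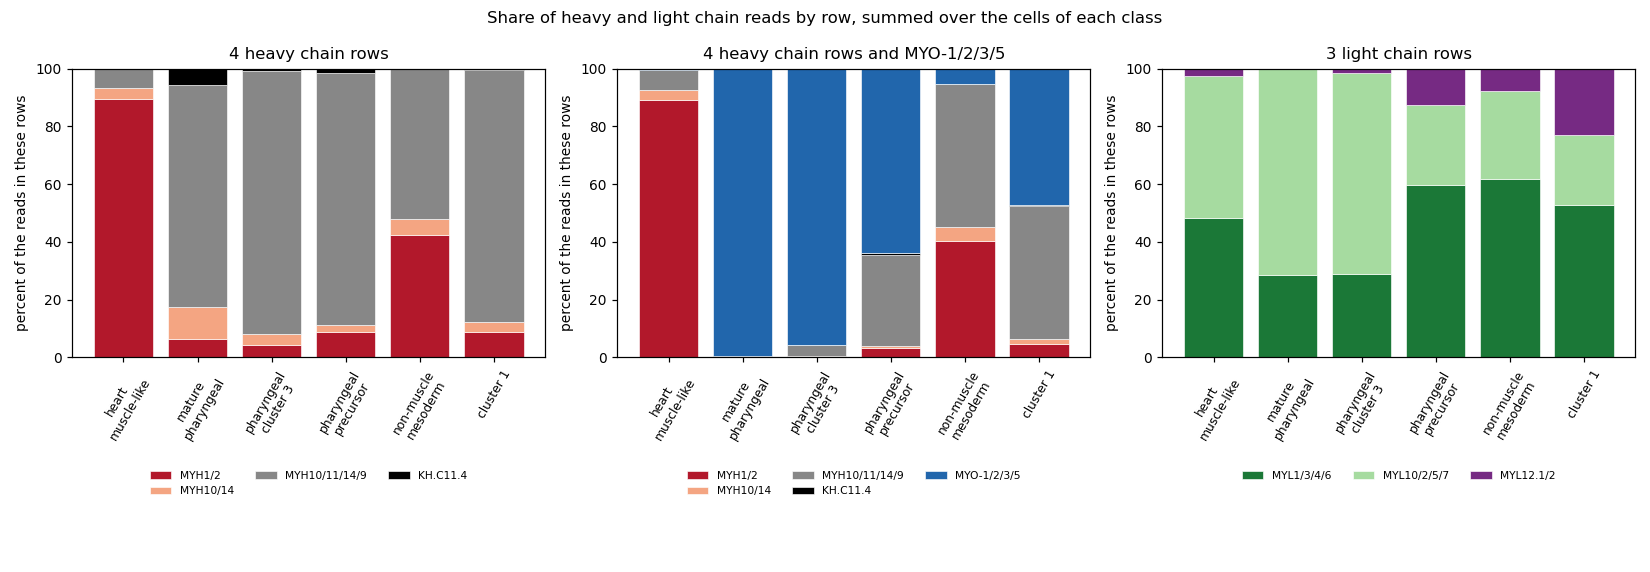
Percent of reads by row within the 4 heavy chain rows (left), the same with MYO-1/2/3/5 (middle) and the 3 light chain rows (right), summed over all cells of each of 6 classes. MYH1/2 takes 89.6% of the summed heavy chain reads in heart muscle-like cells, and MYO-1/2/3/5 takes 99.6% in mature pharyngeal cells once it is added.

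The balance of heavy to light chain reads depended on whether MYO-1/2/3/5 was counted. In heart muscle-like cells, the 4 heavy chain rows had 115, 144 and 172 reads per 1000 light chain reads on plates 4, 5 and 7. In mature pharyngeal cells they had 0.723 and 0.599, and in cluster 3 they had 1.35, 10.5, 11.3 and 2.49 on plates 2, 4, 5 and 7. With MYO-1/2/3/5 counted as a heavy chain, the heart values were 117, 145 and 172, the mature pharyngeal values were 140 and 163, and the cluster 3 values were 211, 148, 161 and 77.6. The heart range then lay inside the range of the pharyngeal classes. Most heavy chain reads were MYH1/2 in heart and MYO-1/2/3/5 in pharyngeal muscle, so this likeness depends on the unknown lengths of different rows. Cluster 1 had the highest mean, 247 ± 97.8 (n = 4), and non-muscle heart mesoderm-like cells had 117 ± 48.1 (n = 4).

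Tested over plates on the log2 scale, the ratio of the 4 rows was higher in heart than in all pharyngeal muscle-like cells by 5.37 ± 1.05 (SD, 3 of 3 plates). The exact two-sided sign-flip permutation p was 0.25, which is the smallest that 3 plates allow (0.75 after Benjamini-Hochberg adjustment over 6 tests). With MYO-1/2/3/5 the difference was 0.08 ± 0.55, with heart higher on 1 of 3 plates (exact permutation p = 1.0), and single plates ran from -0.30 to 0.71. Mature pharyngeal cells differed from cluster 3 by -4.05 ± 0.27 on the log2 scale with the 4 rows and by -0.03 ± 0.07 with MYO-1/2/3/5, on 2 plates, where the smallest exact permutation p is 0.5. Pharyngeal muscle-like cells as a whole differed from precursor-like cells by -4.02 ± 1.08 with the 4 rows (4 of 4 plates lower, exact permutation p = 0.125, the smallest possible). With MYO-1/2/3/5 that difference was -0.23 ± 0.75 (3 of 4 plates lower, exact permutation p = 0.625). The summed muscle markers were at least 26292 CPM in both pharyngeal muscle-like classes and 1181 CPM in the precursor-like class. Few cells weighed heavily on the precursor-like sums. Over its cells, MYO-1/2/3/5 had a median of 34.9 and a maximum of 1757 CPM, and MYL10/2/5/7 had 152 and 5425 CPM. None of these tests could pass 0.05 with so few plates.

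**Figure D3:**
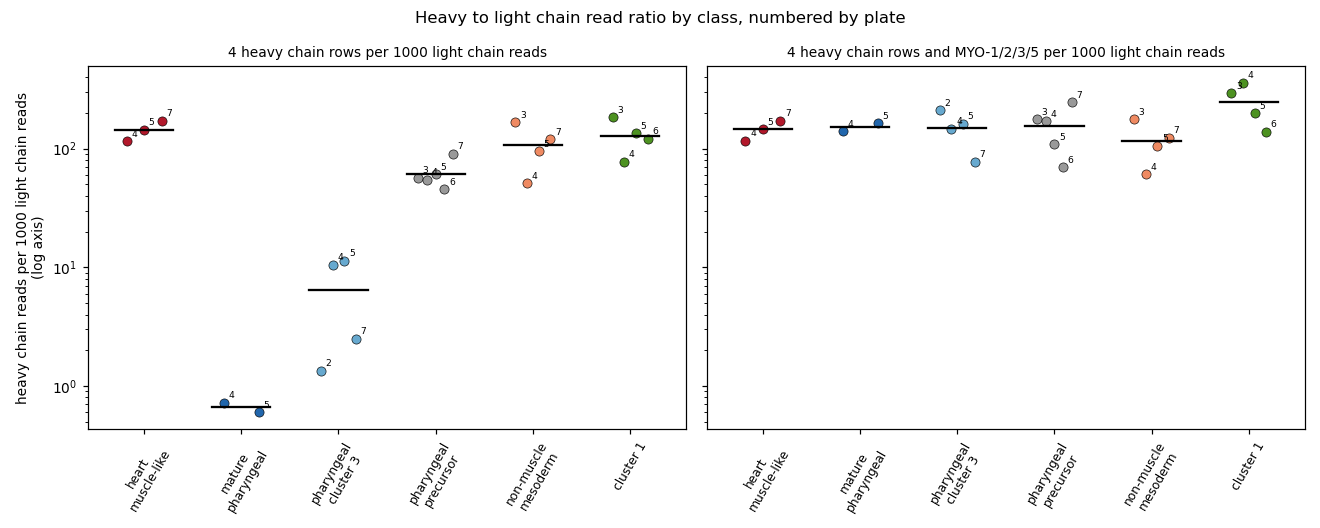
Heavy chain reads per 1000 light chain reads (log axis) by class, 1 point per plate, numbered by plate, with a bar at the mean, for the 4 heavy chain rows (left) and with MYO-1/2/3/5 added (right). On the left the mature pharyngeal plates lie at 0.599 and 0.723 and the heart plates at 115 to 172, and on the right both lie between 117 and 172.

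In single cells the pair of main heavy chains was close to mutually exclusive in the muscle classes. Among cells with at least 10 reads of MYH1/2 and MYO-1/2/3/5 together, 29 of 30 heart muscle-like cells had over 90% of those reads in MYH1/2, and the remaining cell had 83.1%. All 24 mature pharyngeal cells and 43 of 45 cluster 3 cells had under 10% in MYH1/2. Of 28 non-muscle heart mesoderm-like cells, 14 were over 90%, 10 lay between and 4 were under 10%. Cluster 1 was mixed towards MYO-1/2/3/5, with 25 of 36 cells under 10% and 1 over 90%. After each cell was thinned to 20000 reads, which left 304 of 315 cells, none had 10 or more reads of both rows, 41 had them of MYH1/2 alone and 68 of MYO-1/2/3/5 alone. A count of 0 of 304 cells allows a share of up to 0.987%, for that many reads at this depth and not for lower expression.

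Low counts of the other muscle's heavy chain were common. Before thinning, MYO-1/2/3/5 was read in 30 of 32 heart muscle-like cells and MYH1/2 in 32 of 77 pharyngeal muscle-like cells, at median depths of 105283 reads in heart and 179819 reads in pharyngeal muscle-like cells. After thinning, MYO-1/2/3/5 was read in 16 of 31 heart muscle-like cells and MYH1/2 in 7 of 74 pharyngeal muscle-like cells. With 3 or more reads these were 2 of 31 heart muscle-like cells and 0 of 74 pharyngeal muscle-like cells (which allows up to 4.05%). The share with MYH1/2 was 9.46% in pharyngeal muscle-like cells (exact 95% interval 3.89 to 18.5%). In precursor-like cells it was 12.3% (8 of 65, exact 95% interval 5.47 to 22.8%). No cell of either class had 3 or more reads. The intervals in this paragraph count cells pooled over plates, which are not replicates, so they do not compare classes. Non-muscle heart mesoderm-like cells had MYH1/2 in 28 of 78 thinned cells (35.9%, exact 95% interval 25.3 to 47.6%), 11 of them with 10 or more reads, and 29 of 31 heart muscle-like cells had it (93.5%). Doublets were not removed, and their part in the cells with both rows was not tested.

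Every one of the 82 thinned cells with MYH1/2 also had MYL10/2/5/7, while 205 cells had MYL10/2/5/7 without MYH1/2. At 10 or more reads, 36 cells had both, 5 had MYH1/2 alone and 108 had MYL10/2/5/7 alone. The 5 cells were all non-muscle heart mesoderm-like, a class in which 6 cells had both rows at this level. No thinned cell had 10 reads of MYH1/2 without 10 reads of MYL1/3/4/6.

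**Figure D4:**
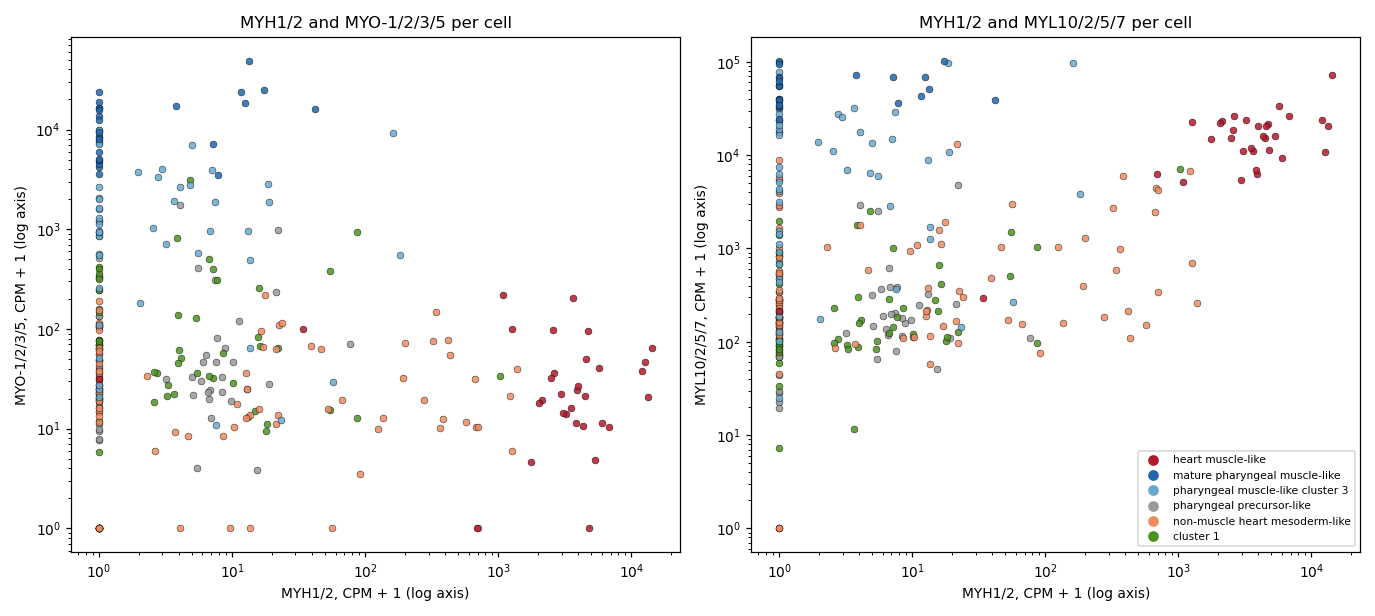
CPM plus 1 (log axes) of MYH1/2 against MYO-1/2/3/5 (left) and against MYL10/2/5/7 (right) in each of 315 cells, coloured by class. Most heart muscle-like cells lie at high MYH1/2 and low MYO-1/2/3/5, and mature pharyngeal cells at the opposite corner. Both classes are high in MYL10/2/5/7, except for heart muscle-like cells at 213 and 296 CPM. Cluster 3 cells spread from the mature pharyngeal corner to low levels of both MYO-1/2/3/5 and MYL10/2/5/7.

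Over cells, the light chains followed each other more closely than either followed MYH1/2. Across the 304 thinned cells of 7 plates, centred within plate on the log2(CPM + 1) scale, Pearson's r was 0.71 for MYL10/2/5/7 with MYL1/3/4/6 (Spearman's rho 0.72), 0.51 for MYO-1/2/3/5 with MYL10/2/5/7 (rho 0.44) and 0.29 for MYH1/2 with MYL10/2/5/7 (rho 0.23). Within the 74 pharyngeal muscle-like cells, MYO-1/2/3/5 had r = 0.84 with MYL10/2/5/7 and 0.78 with MYL1/3/4/6, whereas MYH1/2 had r = -0.09 with MYL10/2/5/7. These cells pool the mature class and cluster 3, which differ in the levels of MYO-1/2/3/5 and both light chains. No r within either class is given. Within the 31 heart muscle-like cells, MYH1/2 had r = 0.93 with MYL10/2/5/7 and 0.72 with MYL1/3/4/6. These heart values rest in large part on 2 cells without MYH1/2 reads, since without them r was 0.56 and 0.22 over 29 cells. In the 2 cells MYL10/2/5/7 was at 213 and 296 CPM. MYH10/11/14/9 and MYL12.1/2 had r = 0.18 over 304 cells. Cells share plates and the total that scales them, so these are descriptions with no test.

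The genes with the pattern most like each row were found over the same 304 cells. Of 7801 named genes read in at least 20 cells, MYH1/2 was closest to TPM1/2 (KH.C3.661), a tropomyosin of the thin filament (r = 0.74), followed by PDLIM5/7 (KH.C2.204, r = 0.69), a PDZ and LIM domain protein, ADPRHL1 (r = 0.67), CCDC141 (r = 0.60) and LIPI (r = 0.59). MYH10/14 was closest to ADPRHL1 (r = 0.43), then PDLIM5/7, NEBL, a nebulin relative, MYH1/2 and ZFPM1/2. MYL10/2/5/7 was closest to the actin row ACTA1/2 (KH.C1.570, r = 0.79), and then to PDLIM1/2/3/4/7, ACTA1/2 (KH.C8.649), TNNT1/2/3 (troponin T) and MYL1/3/4/6. MYL1/3/4/6 was closest to ACTA1/2 (KH.C8.649, r = 0.71), MYL10/2/5/7, PDLIM1/2/3/4/7, ACTA1/2 (KH.C1.570) and TNNI1/2/3 (troponin I). MYO-1/2/3/5 was closest to DSCAM/2/3/4 (KH.C2.287, r = 0.69), CALML6 (r = 0.69), AK1, PALLD and ROBO1/2 (KH.L19.1). Likeness was weaker for MYL12.1/2, whose nearest gene was the actin capping subunit CAPZB (r = 0.35), followed by MRAS, RAP1A, COPZ1/2 and ARF1/2/3 (KH.C6.143). For MYH10/11/14/9 the nearest was ANXA13/7 (r = 0.31), followed by AP3D1, ARHGDIA (KH.L106.15), DNAJC11 and TMBIM6. KH.C11.4 was read in too few cells for this measure.

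Heart muscle-like cells were compared with all pharyngeal muscle-like cells on 3 plates in a fit over 3417 genes, of which 4.27% were called at an adjusted p under 0.05 (1.79% higher and 2.49% lower in heart). Of 6 tested rows, MYH1/2 and MYH10/14 were higher in heart, MYL10/2/5/7 was lower, and 3 did not pass. MYH1/2 had 16410 reads in heart muscle-like cells and 93 in pharyngeal muscle-like cells, a log2 fold change of 9.36 ± 0.57 (SE, adjusted p = 2.12e-57, higher on 3 of 3 plates). MYH10/14 averaged 194 ± 56.6 CPM in heart and 4.75 ± 5.35 CPM in pharyngeal muscle-like cells, with a log2 fold change of 5.56 ± 1.37 (adjusted p = 0.00215, 3 of 3 plates). Without plate 7 that call was lost (4.54, adjusted p = 0.366). MYO-1/2/3/5 was lower in heart, at 39.8 ± 22.2 CPM against 4716 ± 1693 CPM in pharyngeal muscle-like cells, by -7.47 ± 0.49 (adjusted p = 1.48e-49).

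The light chain rows were compared in the same fit. MYL10/2/5/7 averaged 19311 ± 4230 CPM in heart and 26145 ± 8740 CPM in pharyngeal muscle-like cells, with overlapping plates and a log2 fold change of -0.82 ± 0.23 (adjusted p = 0.0145). Heart was higher on 1 of the 3 plates, and the call was lost with relative log expression size factors (-0.62, adjusted p = 0.199), with DESeq2, without the plate block, with classes from all genes but the members, and without plate 5 or plate 7, so its direction is not firm. MYL1/3/4/6 averaged 15976 ± 2183 CPM in heart and 8970 ± 2895 CPM in pharyngeal muscle-like cells (log2 fold change 0.45 ± 0.27, adjusted p = 0.512). MYL12.1/2 averaged 1045 ± 377 CPM in heart and 267 ± 71.1 CPM in pharyngeal muscle-like cells. Its log2 fold change of 1.52 ± 0.55 did not pass (adjusted p = 0.113) but did under relative log expression factors (1.72, adjusted p = 0.0457) and with classes from all genes but the members (1.87, adjusted p = 0.017). MYH10/11/14/9 had 1.60 ± 0.70 (adjusted p = 0.277). The median log2 fold change was 1.56 over the 6 rows and -0.99 over all tested genes, and relative log expression factors moved the median of all genes by 0.18.

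Partner genes of the sarcomere were tested in the same fit. Of 15 tested thin filament genes, 1 was higher in heart, 1 was lower and 13 did not pass. TPM1/2 (KH.C3.661) averaged 10959 ± 4051 CPM in heart and 24.7 ± 28.4 CPM in pharyngeal muscle-like cells (log2 fold change 8.95 ± 0.46, adjusted p = 2.27e-77). This row was among the markers that named the heart class, so its difference is no separate result. The troponin C row TNNC2 (KH.C12.417) had 1 read in heart and 1879 reads in pharyngeal muscle-like cells on the same plates, or 0.569 ± 0.985 CPM in heart and 105 ± 20.4 CPM in pharyngeal muscle-like cells (adjusted p = 0.000567). Of 8 tested thick filament and myosin regulation genes, 2 were higher in heart and none was lower. MYBPC1/2/3, a myosin-binding protein C that sits on the thick filament, had 324 ± 200 CPM in heart and 0.736 ± 0.992 CPM in pharyngeal muscle-like cells (8.94 ± 1.23, adjusted p = 7.78e-11). TTN (KH.C9.208), a row named after the giant sarcomere protein titin, had 1964 ± 980 CPM in heart and 381 ± 85.6 CPM in pharyngeal muscle-like cells (1.85 ± 0.49, adjusted p = 0.00547). MYLK2/3/4, named after kinases of the regulatory light chain, had 262 ± 153 CPM in heart and 22.3 ± 9.69 CPM in pharyngeal muscle-like cells and did not pass (adjusted p = 0.0611). None of 4 tested unconventional myosins passed. The 2 other myosin II rows among the genes tested had too few reads.

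Against all other cells on plates 4, 5 and 7, with 3.15% of 4660 genes called (1.27% higher and 1.89% lower), 5 of 7 rows were higher in heart muscle-like cells and none was lower. MYH1/2 was higher by 7.20 ± 0.36 on the log2 scale (4511 ± 1473 CPM in heart against 44.7 ± 47.2 CPM in the rest, adjusted p = 5.38e-85). MYH10/14 was higher by 4.39 ± 1.12 (adjusted p = 0.00504, lost without plate 7 at 0.552). MYL1/3/4/6 was higher by 2.01 ± 0.15, MYL10/2/5/7 by 1.13 ± 0.13 and MYL12.1/2 by 1.70 ± 0.46 (adjusted p = 2.28e-38, 1.07e-16 and 0.00967). These 3 light chain calls did not hold in DESeq2 (adjusted p = 0.122, 0.382 and 0.188), and that of MYL12.1/2 was also lost without plate 5 (0.148) and without the plate block (0.0603). MYH10/11/14/9 had 1.48 ± 0.64 (adjusted p = 0.22), with 519 ± 346 CPM in heart and 140 ± 26.5 CPM in the rest. The rest holds the pharyngeal muscle-like cells as well as non-muscle cells. Of 10 tested thick filament and regulation genes, 4 were higher (both TTN rows, MYBPC1/2/3 and MYLK2/3/4, the last at 3.13 ± 0.88, adjusted p = 0.0155), and of 17 thin filament genes 5 were higher and 1 lower. The median was 1.70 over the members and -1.78 over all genes. In the fits with heart or mature pharyngeal cells the spread was estimated in common for all genes, so the size of very small p-values should not be taken at face value.

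Within pharyngeal muscle, the mature class had more of both main light chains and of MYO-1/2/3/5 than cluster 3, in a fit on plates 4 and 5 with 4.35% of 3287 genes called (2.56% higher and 1.79% lower). MYL1/3/4/6 averaged 28368 ± 2227 CPM in mature cells and 5257 ± 338 CPM in cluster 3 (log2 fold change 2.59 ± 0.57, adjusted p = 0.000293). MYL10/2/5/7 averaged 67663 ± 381 CPM in mature cells and 10319 ± 2188 CPM in cluster 3 (2.89 ± 0.63, adjusted p = 0.00031). MYO-1/2/3/5 averaged 14484 ± 1179 CPM in mature cells and 2295 ± 514 CPM in cluster 3 (2.83 ± 0.53, adjusted p = 1.03e-05). The 3 fold changes differ by less than the SE of each. The other 4 tested rows did not pass, and MYH10/11/14/9 had 47.7 ± 6.98 CPM in mature cells and 163 ± 42.4 CPM in cluster 3 (-1.59 ± 0.86, adjusted p = 0.504). All 3 calls were lost without the plate block (adjusted p = 0.141, 0.178 and 0.123), where edgeR called no gene, 656 genes had an unadjusted p under 0.05, and DESeq2 with the block called 259. Of 16 thin filament genes 6 were higher and 2 lower. Both ACTA1/2 rows were higher, KH.C8.649 by 3.05 ± 0.55 and KH.C1.570 by 3.0 ± 0.50 (adjusted p = 4.66e-06 and 2.91e-07), and TAGLN/2/3 (KH.C4.230), named after an actin-binding protein of smooth muscle, was lower by -5.04 ± 0.79 (adjusted p = 4.26e-08). Both TTN rows were higher, among 7 tested thick filament genes.

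Pharyngeal muscle-like cells of both classes were higher than precursor-like cells in the same 3 genes, on plates 3, 4, 5 and 7, in a fit with 1.67% of 3482 genes called (1.64% higher and 0.0287% lower). MYL10/2/5/7 averaged 22328 ± 10450 CPM in pharyngeal muscle-like cells and 503 ± 434 CPM in precursor-like cells (5.97 ± 0.56, adjusted p = 3.68e-05). MYL1/3/4/6 averaged 7946 ± 3128 CPM in pharyngeal muscle-like and 734 ± 104 CPM in precursor-like cells (3.54 ± 0.23, adjusted p = 2.5e-06). MYO-1/2/3/5 averaged 4197 ± 1729 CPM in pharyngeal muscle-like cells and 157 ± 81.9 CPM in precursor-like cells (4.97 ± 0.50, adjusted p = 5.84e-05). Each was higher on 4 of 4 plates with no overlap. MYH1/2 was 7.38 ± 4.70 CPM in pharyngeal muscle-like cells and 6.45 ± 4.04 CPM in precursor-like cells (0.46 ± 1.43, adjusted p = 0.985), and neither MYH10/11/14/9 nor MYL12.1/2 passed (adjusted p = 0.934 and 0.548). Of 12 thin filament genes 7 were higher, among them TNNT1/2/3 by 5.6 ± 0.47 (adjusted p = 2.21e-05) and NEB (KH.C1.479) by 5.33 ± 0.46 (adjusted p = 2.21e-05). Low muscle markers, troponins among them, named the precursor-like class, so the TNNT1/2/3 difference was in part built into the names. Both TTN rows were higher, of 6 tested thick filament genes. The mature pharyngeal class took part through plates 4 and 5 mainly, since other plates held fewer than 5 of its cells.

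**Figure D5:**
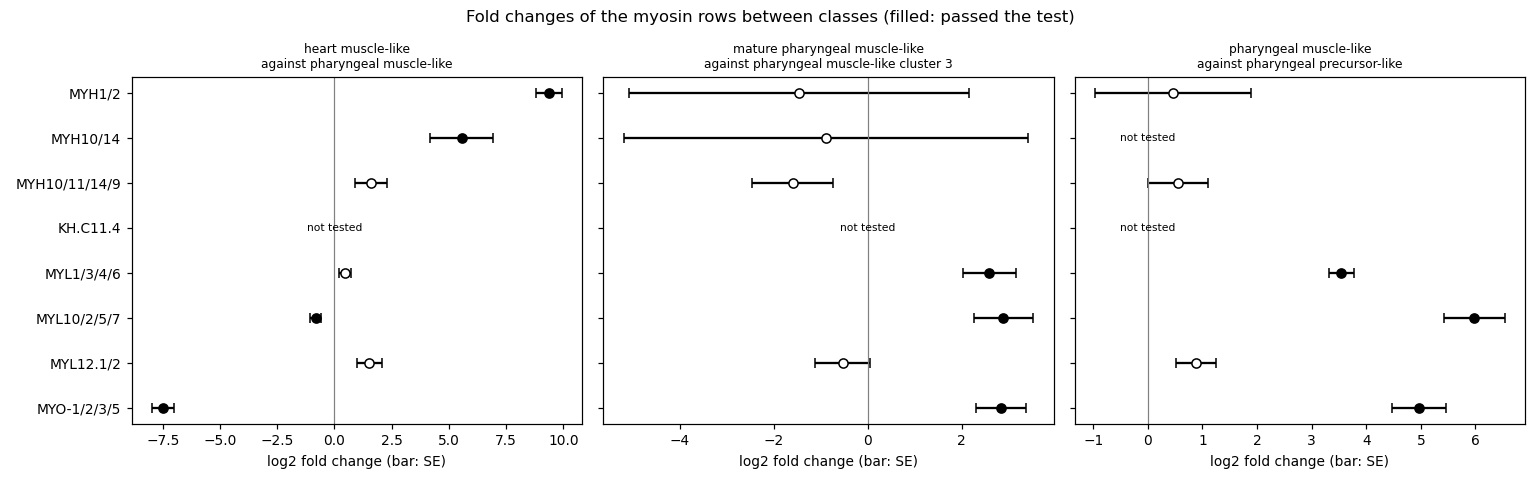
Log2 fold changes with SE of the 7 rows and MYO-1/2/3/5 in 3 comparisons of classes, with filled points for an adjusted p under 0.05. MYH1/2 (9.36) and MYO-1/2/3/5 (-7.47) lie at opposite ends in heart against pharyngeal muscle, while MYL1/3/4/6, MYL10/2/5/7 and MYO-1/2/3/5 are higher together in both pharyngeal comparisons.

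The remaining classes were each set against all other cells. Non-muscle heart mesoderm-like cells were lower in both main light chains, MYL1/3/4/6 by -1.11 ± 0.17 (adjusted p = 0.00239) and MYL10/2/5/7 by -3.38 ± 0.27 (adjusted p = 2.25e-05), with 3.43% of 4456 genes called on 4 plates (1.3% higher and 2.13% lower). The MYL1/3/4/6 call was lost with classes from a second random part of the genes (adjusted p = 0.254) and in cells with at least 2000 genes (0.146). The other 4 tested rows did not pass, and MYH1/2 had -1.10 ± 0.48 (adjusted p = 0.318). Precursor-like cells were lower in 3 of 6 tested rows, with 4.7% of 3912 genes called (0.613% higher and 4.09% lower), namely MYL10/2/5/7 by -4.95 ± 0.46, MYL1/3/4/6 by -2.55 ± 0.20 and MYH1/2 by -4.36 ± 1.14 (adjusted p = 5.26e-06, 2.9e-06 and 0.0413). The MYH1/2 call was lost without plate 3, 4 or 7. Calls were gained for MYH10/14 in DESeq2 and with classes from all genes but the members (adjusted p = 0.00626 and 0.0235), and for MYH10/11/14/9 and MYL12.1/2 with classes from a second random part of the genes (0.0154 and 0.0466). In cluster 1, with 0.965% of 4248 genes called (0.447% higher and 0.518% lower), MYH1/2, MYL1/3/4/6 and MYL10/2/5/7 were lower by -4.90 ± 0.67, -3.24 ± 0.36 and -5.56 ± 0.65 (adjusted p = 0.0231, 0.0137 and 0.015), and all 3 calls were lost without plate 3, 4 or 5. That of MYH1/2 was also lost without the plate block (0.129) and in cells with at least 2000 genes (0.143). Cluster 3 was higher in MYL1/3/4/6 by 0.98 ± 0.18 and in MYL10/2/5/7 by 1.63 ± 0.31 (adjusted p = 0.0452 and 0.0457), calls that were lost without plate 2, 5 or 7, and lower in MYH1/2 by -5.69 ± 0.53 (adjusted p = 0.00156), with 1.22% of 4271 genes called (0.679% higher and 0.539% lower). Without the plate block none of the 3 calls held (adjusted p = 0.179, 0.0726 and 0.052). Both light chain calls were also lost with classes from a second random part of the genes (0.173 and 0.126), that of MYL1/3/4/6 in cells with at least 2000 genes (0.0543) and that of MYL10/2/5/7 with relative log expression factors (0.0537). The mature pharyngeal class, with 3.97% of 4892 genes called on 2 plates (2.17% higher and 1.8% lower), was lower in MYH1/2 by -5.96 ± 1.46 (adjusted p = 0.0024) and higher in MYL1/3/4/6 by 3.96 ± 1.23 (adjusted p = 0.0361), and MYL10/2/5/7 had 4.75 ± 1.64 (adjusted p = 0.0833). The MYH1/2 call was lost without the plate block (0.101), and that of MYL1/3/4/6 with relative log expression factors, without the filter on low counts and with classes from a second random part of the genes (0.104, 0.157 and 0.133). The call of MYL10/2/5/7 was gained in DESeq2, without the plate block and with plates of at least 3 cells (adjusted p = 3.08e-10, 0.0497 and 8.74e-12).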

How the data were processed

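Single-cell cDNA libraries on 7 plates were analysed. Per the file headers, the authors demultiplexed reads by cell barcode and mapped them with TopHat. Per the submitters' processing notes, they counted them with featureCounts. The deposited values are raw counts of reads per KH2013 gene model and barcode, with no molecular identifiers. Versions, genome build and strand use are not given in the sources used here, so near-identical paralogs could share reads. The 5 reporter rows were left out of totals.

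Cells with at least 1000 genes were kept, with 4833997, 3659751, 19403088, 25237588, 4195848, 20583268 and 5293841 reads on plates 2 to 8. Genes were split at random into 2 parts, all 7 myosin rows were placed in the tested part, and cells were clustered on the other part (scanpy 1.11.5, 2000 variable genes, 20 principal components, 15 neighbours, Leiden resolution 0.8). Counts were summed per plate and class (at least 5 cells on each side) and tested with edgeR 4.0.16 (filterByExpr, TMM, quasi-likelihood test, plate as a block, Benjamini-Hochberg adjustment over all tested genes), with DESeq2 1.42.0 as an alternative. The script was tested on simulated data. Classes of 1 plate come from the same library preparation, and this is the pairing. Barcode sequences recur between plates, with 395 shared among kept cells, and median correlations of cells with a shared barcode differed from those of other cells by at most 0.0585. Detection and correlations used cells thinned to 20000 reads, with a pseudocount of 1 CPM.

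Every row that met the naming rule is named, with up to 4 genes of each partner list by smallest adjusted p and the 5 most correlated genes. The members and lists were chosen with earlier results of these data known.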

Additional observations from a re-analysis of the deposited data

Results flagged for a closer look

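Groups of 4 to 7 plates were searched for a plate far from the others, and 7 of 40 were found, where chance gives about 1 in 20. Plate 2 stood apart for MYO-1/2/3/5, at 4015 CPM over all kept cells against 538 to 1785 CPM on the other plates, and at 6303 CPM in cluster 3 against 1932 to 2658 CPM. Plate 2 was also apart for MYL1/3/4/6 in cluster 3 (9672 CPM against 5018 to 5708 CPM), and plate 4 was apart for this row in precursor-like cells (887.9 CPM against 661 to 707 CPM). KH.C11.4 was apart on 1 plate in cluster 1 (1.167 CPM, 15 reads), in non-muscle heart mesoderm-like cells (0.4593 CPM, 4 reads) and in precursor-like cells (5.912 CPM, 10 reads), with 0 to 3 reads on each other plate.

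The 72 barcodes with at least 200 and under 1000 genes, which no comparison used, held 41010 CPM of MYL10/2/5/7, 13570 CPM of MYL1/3/4/6 and 6420 CPM of MYO-1/2/3/5, summed over 1511810 reads. Kept cells summed in the same way had 8287, 4468 and 1456 CPM. MYL10/2/5/7 exceeded 10000 CPM in 20 of the 72 barcodes and in 72 of the 315 kept cells. MYH1/2 was at 32.4 CPM in the low-gene barcodes, against 261 CPM in kept cells. The heart regulator NKX2-3 was at 3.97 CPM in them, against 77.0 CPM in kept cells.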

How the results depend on the processing

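Of the fold changes of the 7 myosin genes and MYO-1/2/3/5 under the alternatives, 629 kept direction and side of the threshold, 59 lost the call, 9 gained it, 5 uncalled values moved and 0 called values reversed. The 629 include values without a call in the main fit, which had no call to lose, so they overstate how well calls held. The cause of the changes in call or direction was not tested.

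Counts of called genes moved by over 1.5 times under several settings. DESeq2 called 587 genes in heart muscle-like cells against the rest (147 in edgeR), 303 in mature pharyngeal (194), 351 in cluster 3 (52), 516 in precursor-like (184), 479 in non-muscle heart mesoderm-like (153), 267 in cluster 1 (41), 370 in heart against pharyngeal (146), 259 in mature against cluster 3 (143) and 190 in pharyngeal against precursor (58).

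The plates are the pairing. Without the replicate block the counts were 57 in heart, 23 in mature pharyngeal, 7 in cluster 3 and 66 in cluster 1 against the rest, and 0 in mature against cluster 3. Heart against pharyngeal then had 112.

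Without the filter on low counts there were 121 calls in cluster 3, 265 in non-muscle heart mesoderm-like cells, 129 in cluster 1 and 102 in pharyngeal against precursor. With at least 3 cells there were 334 in mature pharyngeal, 65 in cluster 1 and 92 in mature against cluster 3. Classes from a second random part gave 21 in cluster 3, 81 in non-muscle heart mesoderm-like cells and 84 in cluster 1, and classes from all genes but the members gave 429 in cluster 1 and 213 in pharyngeal against precursor, where more genes were tested, among them those that formed the classes. Cells with at least 2000 genes gave 31 in cluster 3, 107 in precursor-like and 61 in non-muscle heart mesoderm-like cells, and left the heart class 1 plate and so no test.

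Leaving out 1 plate gave 77 to 138 calls in heart, 23 to 44 in cluster 3, 97 to 149 in precursor-like, 92 to 150 in non-muscle heart mesoderm-like and 0 to 57 in cluster 1 against the rest, 66 to 123 in heart against pharyngeal and 45 to 77 in pharyngeal against precursor. In cluster 1 edgeR called 0 genes without plate 3 or plate 4 (334 and 373 at an unadjusted p under 0.05, and 267 by DESeq2 on all plates) and 1 without plate 5. With 1 plate left, the mature pharyngeal fits gave no test.

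With MYO-1/2/3/5 the log2 difference in heavy to light chain ratio changed sign when 1 plate was left out, over -0.2276 to 0.2751 for heart against pharyngeal, -0.07907 to 0.01757 for mature against cluster 3 and -0.4994 to 0.1013 for pharyngeal against precursor, where the median over cells gave 0.4573. Detection of MYH1/2 in pharyngeal muscle-like cells was 9.46% of thinned cells, 41.56% not thinned and 0% at 3 reads. For MYL10/2/5/7 in precursor-like cells it was 93.8%, with 73.85% at 10000 reads, 100% not thinned and 56.92% at 3 reads.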
